A study of Mus musculus with 20 samples.

Results

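The choroid plexus epithelial genes examined here are 10 genes, Ttr, Kcnj13, F5, Slc4a5, Mfrp, Kcne2, 1500015O10Rik, Cldn2, Clic6 and Folr1, of the 33119 genes measured by RNA-seq in the hippocampus of 20 mice. They were chosen from the choroid plexus genes with large weights on the first principal component of the same 20 libraries, so their large spread between mice, and their common direction on that component, follow from the choice and were not tested. Homozygous hAPOE3 and hAPOE4 targeted replacement mice, in which human APOE3 or APOE4 stands in place of the mouse gene, were compared in males and in females. All were on a C57BL/6 background, came from Taconic and were 16 months old, with 5 mice in each of the 4 groups and 1 library for each mouse. The mice were perfused with PBS, and the hippocampus was dissected free and frozen before RNA was extracted.

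The choroid plexus is a fold of vascular stroma covered by a single epithelial layer that hangs in the brain ventricles, with the plexus of the lateral ventricle lying along the hippocampus. Its epithelium secretes cerebrospinal fluid by moving sodium, bicarbonate, chloride and water from blood to ventricle, forms the barrier between blood and that fluid, and releases carrier proteins into it. It is not part of the hippocampus itself. In a bulk library, fewer epithelial cells and less RNA per epithelial cell cannot be told apart.

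All 10 genes are protein-coding. On GRCm38, F5 (1:164151838-164220277, plus strand), Kcnj13 (1:87386363-87394729, minus strand) and 1500015O10Rik (1:43730602-43742578, plus strand) lay on chromosome 1, and Kcne2 (16:92292389-92298129, plus strand) and Clic6 (16:92485736-92541243, plus strand) lay 187.6 kb apart on chromosome 16 with 4 protein-coding genes between them. The others were on separate chromosomes, with Ttr on 18, Slc4a5 on 6, Mfrp on 9, Folr1 on 7 and Cldn2 on X. Overlaps were taken between whole gene spans, introns included. Whether the transcripts share sequence, so that reads could be split between genes, was not examined. Mfrp shared 1943 bases with C1qtnf5 on the same strand, and Kcnj13 lay wholly inside Gigyf2 on the opposite strand. Clic6 shared 11631 bases with the noncoding 2410124H12Rik on the same strand. Mfrp also lay wholly inside Rnf26 and Gm49380, and Folr1 shared 7074 bases with Anapc15, all on the opposite strand.

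Because the members moved together, the promoters that RefSeq gives (GRCm38.p6, 250 bases before to 50 bases after each start) were searched on both strands for 6 short motifs. Promoters of 7 members were matched, 8 windows in all since Kcne2 had a pair of them, and 1500015O10Rik was matched under its current name Ecrg4. Those of Ttr, Clic6 and Folr1 are not shown. The TATA box letters TATAAA were in 3 of the 7 genes (Kcnj13, Cldn2 and Slc4a5), against 13.6% of all 32851 promoters. The E-box CAGCTG was in 4 (Kcnj13, Cldn2, Slc4a5 and Mfrp), against 16.3%. The letters TAATCC, the core bound by homeodomain proteins such as OTX2, were in 1 (Mfrp), against 7.06%. CCAAT was in 2 (Kcnj13 and Mfrp), against 37.4%, GTTGCC, part of the site of RFX factors, in 1 (Kcne2), against 12.5%, and the forkhead letters TGTTTAC in 0, against 3.65%. None of these motifs overlapped another in the 3 windows printed here, and a match is a run of letters and not a shown binding site. The 3 windows show the TATA letters of Kcnj13 and Cldn2, which began 29 and 35 bases before the start, and the only TAATCC, which stands as GGATTA on the printed strand of Mfrp and begins 134 bases before its start. Capitals mark those letters.
Kcnj13, chr1:87394680-87394979, minus strand: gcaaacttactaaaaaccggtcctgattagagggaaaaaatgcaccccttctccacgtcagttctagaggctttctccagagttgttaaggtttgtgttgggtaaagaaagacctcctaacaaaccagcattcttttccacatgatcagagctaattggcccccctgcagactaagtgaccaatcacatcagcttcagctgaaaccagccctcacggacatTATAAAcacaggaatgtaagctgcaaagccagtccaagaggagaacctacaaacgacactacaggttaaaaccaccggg
Cldn2, chrX:139800558-139800857, plus strand: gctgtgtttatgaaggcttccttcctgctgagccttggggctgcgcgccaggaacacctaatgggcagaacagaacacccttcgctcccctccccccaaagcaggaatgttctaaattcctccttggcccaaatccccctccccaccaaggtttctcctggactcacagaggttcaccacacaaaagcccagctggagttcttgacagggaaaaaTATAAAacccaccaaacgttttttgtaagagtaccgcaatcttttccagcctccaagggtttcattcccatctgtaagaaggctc
Mfrp, chr9:44101520-44101819, plus strand: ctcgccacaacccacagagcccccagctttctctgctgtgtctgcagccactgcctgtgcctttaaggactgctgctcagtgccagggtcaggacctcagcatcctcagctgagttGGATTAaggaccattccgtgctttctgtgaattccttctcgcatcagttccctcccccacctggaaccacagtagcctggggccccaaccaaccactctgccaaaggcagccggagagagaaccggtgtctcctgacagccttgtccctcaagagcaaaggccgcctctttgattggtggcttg

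On the first principal component of the 500 most variable genes, which held 27.9% of the variance, the weights of the members ran from 0.203 for Ttr to 0.120 for Folr1. They ranked 1 and 5 to 13 by size. The ranks from 2 to 4 were held by Xist, Ddx3y and Eif2s3y, genes of the sex chromosomes, so the component was not free of sex. Just inside the choice stood Clic6 (0.121) and Folr1 (0.120), and just outside it Enpp2 (0.110) and Aqp1 (0.109), which are also choroid plexus genes. The 10 members held 19.3% of the squared weights. Of 26 other choroid plexus genes listed for comparison, 23 were among the 500.

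Total counts ran from 35778879 to 52520279 per mouse, and the members took between 0.00477% and 0.650% of them. CPM, the counts of a gene relative to all counts of its library, are scaled with TMM factors. Each member had at least 10 counts in every mouse, and Ttr at least 1308, so all 10 passed the expression filter. Where Kcne2 (lowest count 10), Cldn2 (14), Kcnj13 (15) or Slc4a5 (16) were lowest, counting error was a large part of a value.

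The members spanned a wide range between mice of the same group. Ttr, which encodes transthyretin, the carrier of thyroxine and of retinol-binding protein in cerebrospinal fluid, was measured at 43.4, 45.8, 89.4, 2278 and 3161 CPM in hAPOE3 males. In hAPOE4 males it was 70.2, 94.7, 115, 719 and 2570 CPM. In both male groups 3 mice had low Ttr and the others had several times to many times more. In hAPOE3 females Ttr was 37.3, 1225, 2531, 3430 and 3668 CPM. In hAPOE4 females it was 66.6, 439.8, 4229, 5607 and 5906 CPM. Every group held at least 1 mouse near the bottom of the range, the highest mouse had 158.2 times the Ttr of the lowest, and all 4 groups overlapped.

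F5 encodes coagulation factor V, the cofactor of the enzyme that makes thrombin. Its levels were 0.769, 1.15, 1.66, 5.66 and 11.02 CPM in hAPOE3 males and 1.38, 1.90, 2.31, 5.87 and 45.2 CPM in hAPOE4 males. In hAPOE3 females F5 was 1.48, 9.82, 14.99, 20.9 and 57.7 CPM, and in hAPOE4 females 1.27, 6.68, 57.9, 80.6 and 86.0 CPM. The groups overlapped, and 3 hAPOE4 females, 1 hAPOE3 female and 1 hAPOE4 male stood above the rest. Mfrp, which encodes a membrane frizzled-related protein known from the retinal pigment epithelium, followed the same order of mice at the top. It was 0.922, 0.985, 0.991, 6.51 and 9.34 CPM in hAPOE3 males, 1.43, 1.503, 2.55, 7.29 and 45.3 CPM in hAPOE4 males, 1.26, 9.99, 11.4, 17.7 and 48.5 CPM in hAPOE3 females and 1.41, 4.45, 49.9, 62.4 and 74.9 CPM in hAPOE4 females.

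1500015O10Rik encodes augurin, the secreted precursor of small peptides, and had a narrower range. It was 1.61, 1.74, 2.40, 22.9 and 32.1 CPM in hAPOE3 males, 2.18, 2.36, 2.79, 7.63 and 28.1 CPM in hAPOE4 males, 1.66, 11.1, 26.4, 33.6 and 37.2 CPM in hAPOE3 females and 1.58, 6.44, 38.8, 58.4 and 59.0 CPM in hAPOE4 females. Its highest mouse had 37.4 times the level of its lowest. Clic6, of the chloride intracellular channel family, had the highest floor after Ttr, with no mouse below 4.25 CPM. Its median was 5.32 CPM (range 4.37 to 28.9) in hAPOE3 males, 5.46 (4.59 to 54.1) in hAPOE4 males, 29.7 (4.68 to 66.3) in hAPOE3 females and 75.4 (4.25 to 111) in hAPOE4 females. The 26.02-fold range of Clic6 was the smallest of the 10.

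The ion transport members had lower levels. Kcnj13, the inward rectifier potassium channel Kir7.1 of the apical membrane, had medians of 0.589, 1.00, 15.1 and 32.8 CPM (hAPOE3 males, then hAPOE4 males, then hAPOE3 and hAPOE4 females), and ran from 0.395 to 48.1 CPM over all mice. Slc4a5, an electrogenic sodium bicarbonate cotransporter, had medians of 0.529, 0.834, 9.80 and 32.6 CPM in the same order (0.428 to 43.7 over all mice). Kcne2, an accessory subunit of voltage-gated potassium channels, had medians of 0.649, 0.601, 10.4 and 21.1 CPM (0.286 to 35.5). In all 3 the median male lay at or near 1 CPM and the median female well above it, with the lowest female as low as the males. Cldn2, the cation-selective pore of the tight junction, had medians of 0.738, 0.827, 7.62 and 22.4 CPM (0.400 to 37.6). Folr1, the folate receptor that carries folate across the epithelium, had medians of 1.32, 1.24, 7.86 and 22.6 CPM (0.628 to 42.3).

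**Figure D1:**
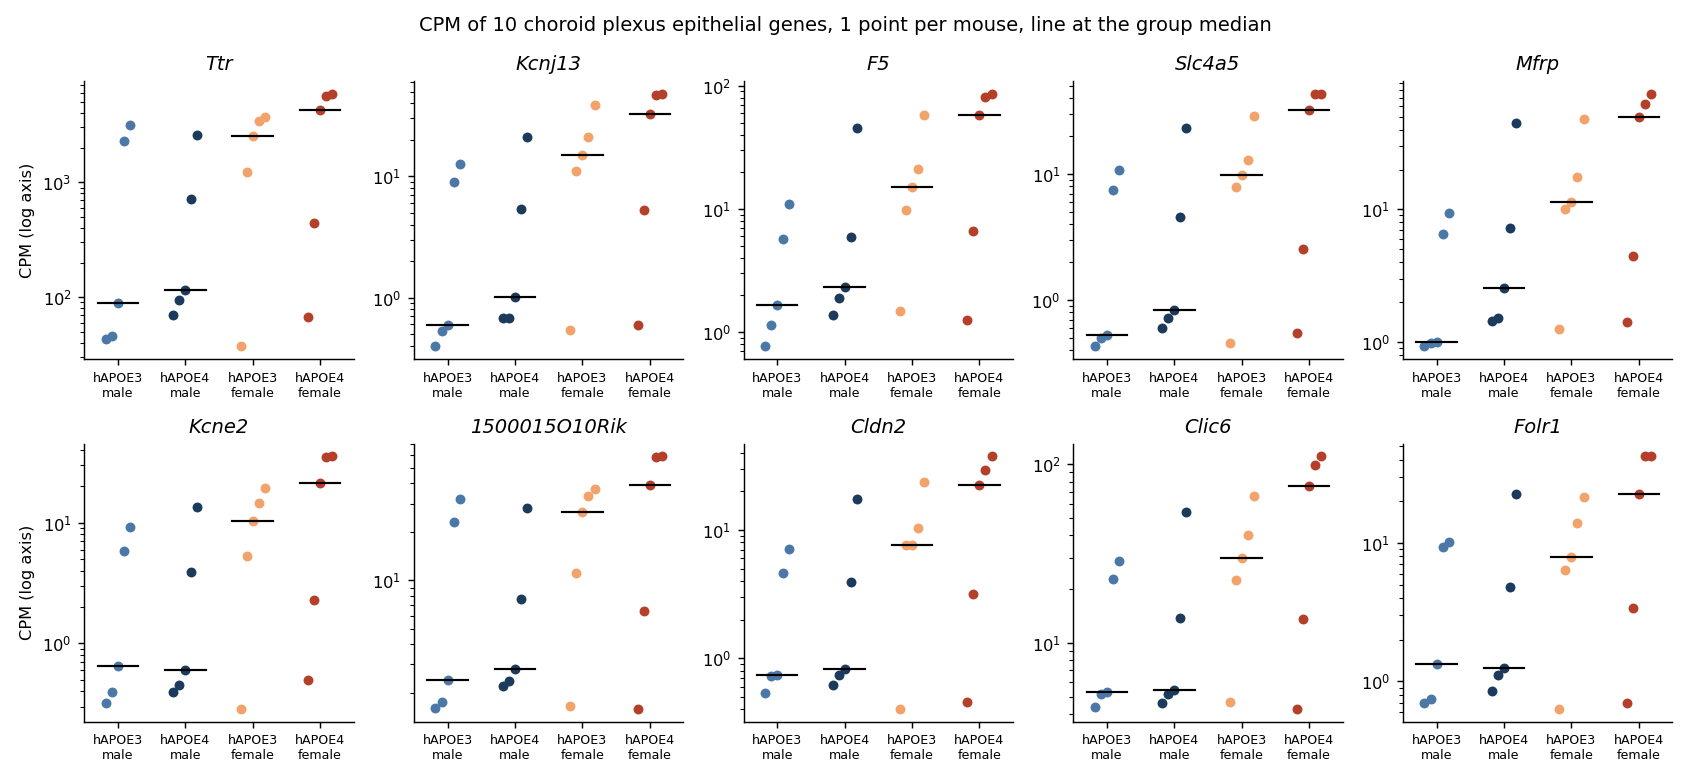
CPM of each of the 10 genes on a log axis, with 1 point for each of the 5 mice in each group and a line at the group median. Every panel shows the same arrangement, with at least 1 mouse per group near the bottom and the 4 groups overlapping.

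Per kilobase of transcript (CPM divided by the length of the longest principal transcript), Ttr was highest with a median over 20 mice of 819.7 CPM per kb, and 1500015O10Rik followed at 10.4. Kcnj13 (5.62), Clic6 (4.85), Folr1 (4.24), Kcne2 (2.72), Mfrp (1.598), Cldn2 (1.40), Slc4a5 (1.176) and F5 (0.845) came next. The ranges over mice of all neighbours in this order overlapped. Within a mouse, Ttr was above 1500015O10Rik in 20 of 20 mice and 1500015O10Rik above Kcnj13 in 20 of 20. Kcnj13 was above Clic6 in 12 of 20, which were the mice with Ttr at 439.8 CPM or more. Slc4a5 was above F5 in 5 of 20, hAPOE3 males 4 and 5, hAPOE3 females 4 and 5 and hAPOE4 male 5. These are mice whose libraries held relatively few counts of long transcripts, as described below. The order of these last pairs thus differed between sets of mice.

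To place the mice on a single scale, a member score was taken as the mean of the 10 log2 CPM values, each centred on its own mean over mice. Scores ran from -2.77 to 3.25. The largest step between neighbouring mice, 1.63, separated 8 mice from -2.77 to -1.95 from 12 mice from -0.32 to 3.25, and took 27.1% of the range. The 8 mice were 3 hAPOE3 males, 3 hAPOE4 males, 1 hAPOE3 female and 1 hAPOE4 female. For each of the 10 members these same 8 mice were the lowest 8. This was also so for 17 of the 26 other choroid plexus genes, whose ranges between the lowest and highest mouse were 2.68-fold to 82.7-fold with a median of 21.2-fold, against 26.02-fold to 158.2-fold for the members.

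The members varied together across the 20 mice, as the choice of genes on 1 component implies. Over the 45 pairs, Pearson's r of log2 CPM ran from 0.92 (Ttr and F5) to 0.99 (Slc4a5 and Cldn2) with a median of 0.98, and Spearman's rho from 0.89 to 0.98. Centred on the group means the median r was again 0.98. Among the 12 mice above the step the median r was 0.93, with the lowest for Ttr and F5 (0.71) and the highest for Ttr and 1500015O10Rik (0.99). Among the 8 mice below it the values scattered from -0.38 (F5 and Kcne2) to 0.93 (1500015O10Rik and Folr1), with a median of 0.59. In those 8 mice most members were near 1 CPM, where counting error weighs most. These points share library and depth, and the correlations are descriptions.

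The genes whose log2 CPM followed the member score most closely over the 20 mice were Sostdc1 (r = 0.99), Aqp1 (0.99), Wdr86 (0.98), Steap1 (0.98), Drc7 (0.98), Col8a1 (0.98), Otx2 (0.98), Rdh5 (0.98), Prr32 (0.97) and Trpv4 (0.97). Of these 10, 6 stood in the list of other choroid plexus genes, among them Aqp1, the apical water channel, and Otx2, the homeobox factor of this epithelium. Of 21714 genes compared, 95 had an r of at least 0.9, and 22 of the 26 other choroid plexus genes were among them.

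Levels were next set against Ttr within each mouse, as counts of a gene per 100 counts of Ttr. Over the 20 mice F5 ran from 0.248 to 3.98, Clic6 from 0.913 to 12.54 and Mfrp from 0.286 to 3.36. The ratio of Kcne2 ran from 0.255 to 0.864, that of Kcnj13 from 0.393 to 1.45 and that of Slc4a5 from 0.330 to 1.22. F5, Clic6 and Mfrp thus differed 16.0-fold, 13.7-fold and 11.8-fold between mice in their ratio to Ttr, and the other 6 members between 3.39-fold and 7.93-fold. The members did not keep a fixed proportion, although their levels rose and fell together.

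A property of the whole library moved with these ratios among the mice above the step, and the ratios also differed across the step. For each mouse a length slope was fitted over 12171 genes. It is the change of log2 CPM, relative to the mean over mice, per doubling of transcript length. The members and the listed other choroid plexus genes were left out, but choroid plexus genes outside these lists were not. The slope was between -0.18 and -0.09 in 6 mice and between 0.0004 and 0.14 in the other 14. The 6 mice were 3 hAPOE3 males, 2 hAPOE3 females and 1 hAPOE4 male, so that 5 of 6 were hAPOE3 and 0 were hAPOE4 females. Long transcripts had relatively fewer counts in these 6 libraries.

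Among the 12 mice with Ttr at 439.8 CPM or more, F5 stood at 1.37 to 1.76 counts per 100 of Ttr in the 7 with a slope of 0 or above and at 0.248 to 0.816 in the 5 of low slope, with no overlap. Kcnj13 stood at 0.776 to 1.19 and 0.393 to 0.742, also with no overlap. The ratio of 1500015O10Rik, the shortest of the 10 transcripts (902 bases), was 0.9096 to 1.47 and 1.01 to 1.06, and the 2 sets of mice overlapped. The other 6 members overlapped too, and for all of them except 1500015O10Rik the median ratio was lower in the mice of low slope. With the deposited normalized counts in place of counts, the log2 ratio of these medians was -1.97 against -1.98 for F5 and 0.02 against 0.02 for 1500015O10Rik. Ratios also differed across the step at a slope of 0 or above. In the 7 such mice below it, Clic6 stood at 4.73 to 12.54, against 1.77 to 3.10 in the 7 above. 1500015O10Rik stood at 2.30 to 4.43 against 0.9096 to 1.47, and Folr1 at 0.90 to 1.68 against 0.52 to 0.88. The ranges of the remaining members overlapped, and the cause was not tested.

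When a straight line of each gene's CPM on Ttr CPM was drawn separately, F5 gained 1.45 CPM per 100 CPM of Ttr in the 14 mice and 0.328 in the 6 (log2 ratio -2.14). Mfrp gained 1.21 and 0.230 (-2.40). These were the largest falls among the members, and F5 has the longest transcript (7430 bases). Cldn2 (-1.37), Slc4a5 (-1.28), Folr1 (-1.17), Clic6 (-1.02), Kcne2 (-0.83) and Kcnj13 (-0.77) lay between, and 1500015O10Rik gained 0.974 and 0.983 CPM (0.01). Across the 9 members the log2 ratio fell with the log2 of transcript length (r = -0.80, rho = -0.82), and across the 26 other choroid plexus genes likewise (r = -0.68, rho = -0.69). Genes are not independent replicates, and both values are descriptions across genes. The line of Clic6 crossed 0 Ttr at 3.94 CPM in the 14 mice, while the other members crossed between -0.39 and 1.65 CPM. Within the 14 mice the 45 pairs of members had Pearson's r of 0.99 and Spearman's rho of 0.86 at the lowest. These mice lie on both sides of the step, which weighs on r.

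**Figure D2:**
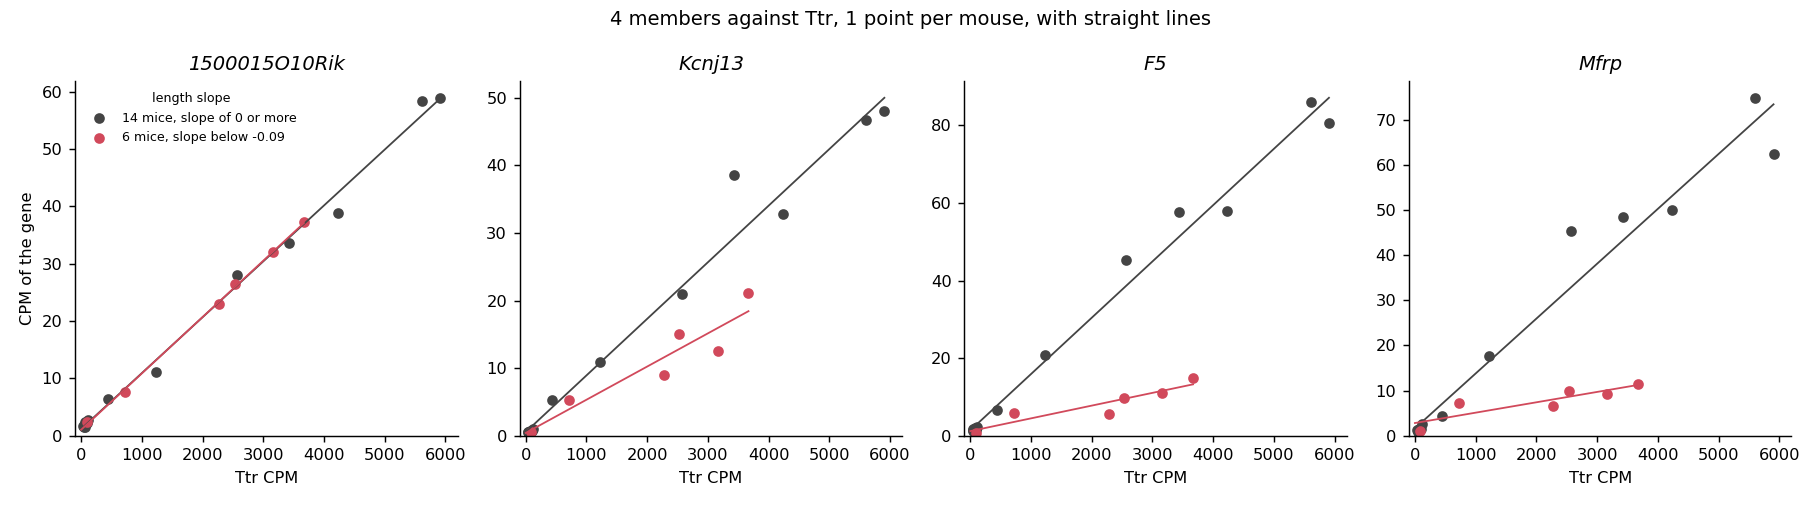
CPM of 4 members against CPM of Ttr, 1 point per mouse, with straight lines fitted separately to the 6 mice of low length slope and the other 14. The lines coincide for 1500015O10Rik (0.983 and 0.974 CPM per 100 CPM of Ttr) and lie far apart for F5 (0.328 and 1.45) and Mfrp (0.230 and 1.21).

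**Figure D3:**
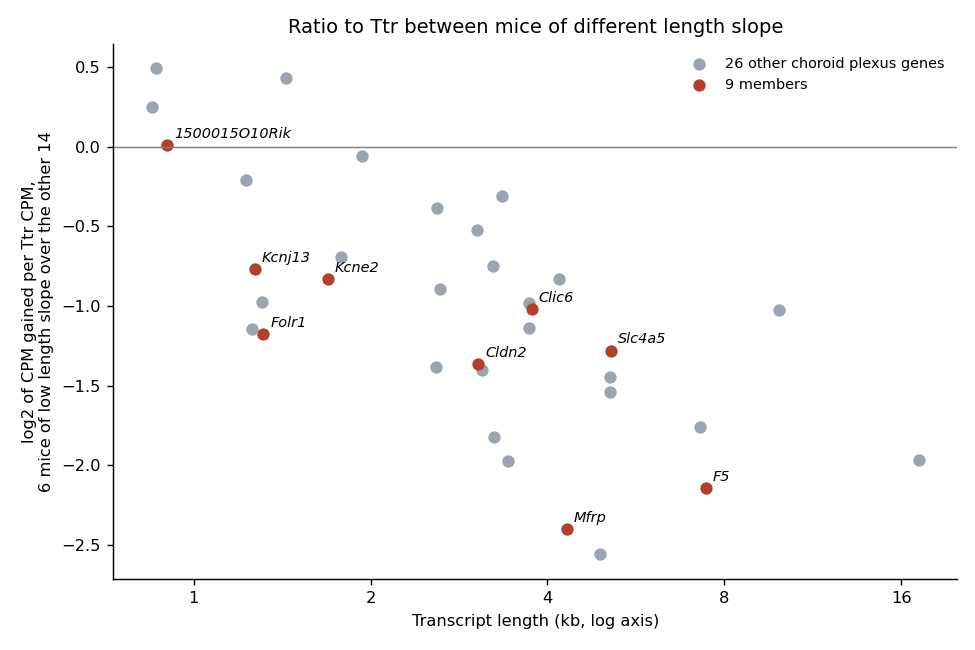
For each gene, the log2 ratio of the CPM gained per CPM of Ttr in the 6 mice of low length slope to that in the other 14, against transcript length on a log axis. Members (red) run from 0.01 for 1500015O10Rik to -2.40 for Mfrp, and the other choroid plexus genes (grey) from 0.49 to -2.56.

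Differences between groups were tested for all 21724 genes past the filter (edgeR, quasi-likelihood), and p-values were adjusted over all of them by Benjamini-Hochberg and called below 0.05. Since Xist and Y-linked genes shared the component that chose the members, the comparison of the sexes was not fully independent of the choice. Over both genotypes, females had higher fitted values than males for 10 of 10 members, and 0 of 10 passed the test (7 had an unadjusted p under 0.05, and with DESeq2 0 passed and 8 did). Over all genes, 0.129% were called, and 2181 of 21724 had an unadjusted p under 0.05 in edgeR. The members varied together, so the counts of members are not counts of separate observations. The median log2 difference of the members was 1.86, against -0.0046 over all genes tested. F5 had the largest difference, 2.19 with an SE of 0.77 (adjusted p = 0.343, edgeR), followed by Kcnj13 (2.05), Mfrp (1.97), Kcne2 (1.95), Cldn2 (1.91), Slc4a5 (1.81), Clic6 (1.58), Ttr (1.57), Folr1 (1.502) and 1500015O10Rik (1.39). The SE ran from 0.60 (Clic6) to 0.93 (Ttr), the differences missed the threshold after adjustment over all genes, and males and females overlapped for all 10.

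Within hAPOE3 mice the median difference between the sexes was 1.59 and within hAPOE4 mice 2.002, both higher in females for 10 of 10 members. Without hAPOE4 male 3 the second was 3.66, and without hAPOE3 male 5 the first was 2.41. In each case 0 of 10 passed the edgeR test. In hAPOE3 mice 1 member had an unadjusted p under 0.05, F5 (log2 difference 2.35, SE 1.11, adjusted p = 0.805), and 0.0414% of all genes were called. In hAPOE4 mice it was Clic6 (1.86, SE 0.85, adjusted p = 0.807), and 0.437% of all genes were called. DESeq2 gave 2 members at an unadjusted p under 0.05 and 0 past the adjusted threshold in both. Over all 21724 genes, edgeR gave 1134 in hAPOE3 and 1261 in hAPOE4 mice at an unadjusted p under 0.05.

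Between genotypes the differences were smaller. Averaged over both sexes, 9 of 10 members had higher fitted values in hAPOE4 than in hAPOE3 mice and 0 passed the test, with 0 at an unadjusted p under 0.05 in edgeR and also in DESeq2, while 2.45% of all genes were called. In edgeR 3898 of all 21724 genes had an unadjusted p under 0.05. The median log2 difference of the members was 0.70, against 0.0016 over all genes. It was -0.07 without hAPOE4 male 3 and between 0.53 and 1.03 without any other mouse. Mfrp (1.37, SE 0.75, adjusted p = 0.353) and F5 (1.31, SE 0.75, adjusted p = 0.375) had the largest values, and Ttr (-0.04, SE 0.91) and 1500015O10Rik (0.04, SE 0.69) the smallest. Of the 6 mice of low length slope 5 were hAPOE3, and the part of the slope in these differences was not tested. With the slope as a covariate, added after seeing the data, Ttr differed by 1.25 (adjusted p = 0.545). Without those 6 mice Ttr differed by 2.53 (adjusted p = 0.346).

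In males the hAPOE4 against hAPOE3 difference had a median of 0.39 (8 of 10 higher, from -0.65 for Ttr to 1.61 for Mfrp), and 0.621% of all genes were called. In females it had a median of 0.91 (10 of 10 higher, 0.58 to 1.15), and 0.667% were called. In both, 0 of 10 members passed the edgeR test and 0 had an unadjusted p under 0.05, and DESeq2 gave 0 and 0. Without the 6 mice of low length slope, which left 2 hAPOE3 males, the median in males was 3.29 and again 0 members passed. The direction in males rested on hAPOE4 male 3, without which the median turned to -1.22 and Mfrp to -0.26. Without hAPOE3 male 5 the median was 1.08 and Ttr turned to 0.22. In females the median ran from 0.56 (without hAPOE4 female 3) to 1.41 (without hAPOE3 female 1). For the interaction of sex and genotype 0 of 10 passed, 0 had an unadjusted p under 0.05 with either tool, and 0.184% of all genes were called. Its median over the members was 0.51, with single values from -0.49 (Mfrp, SE 1.49) to 1.23 (Ttr, SE 1.82). This median turned to -0.24 without hAPOE3 male 5 and rose to 2.07 without hAPOE4 male 3.

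To compare the members at an equal level of other choroid plexus genes, the score of the 26 other choroid plexus genes was added as a covariate. Of these 26, 22 had an r of at least 0.9 with the member score. A difference that the members share with them is therefore largely removed, whatever its cause. The female against male difference then had a median of -0.02 over the members, and 0 of 10 passed, with 0.382% of all genes called. 1 member had an unadjusted p under 0.05 (Folr1, -0.37, SE 0.16, adjusted p = 0.227), as did 1 with DESeq2. In edgeR 3904 of all 21724 genes had one. The SE of F5 fell from 0.77 to 0.22, and its difference was 0.36 (adjusted p = 0.374).

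Between genotypes with the same covariate the median was -0.21, 0 of 10 members passed and 2.79% of all genes were called. 3 members had an unadjusted p under 0.05 in edgeR, where 4367 of all 21724 genes had one, and 1 in DESeq2. These were 1500015O10Rik (-0.59, SE 0.18, adjusted p = 0.0801), Kcne2 (-0.41, SE 0.19, adjusted p = 0.230) and Ttr (-0.69, SE 0.32, adjusted p = 0.236), all lower in hAPOE4 mice. Leaving out hAPOE3 female 1 or hAPOE3 male 2 took 1500015O10Rik past the threshold (adjusted p = 0.0344 and 0.0381). With the length slope as a second covariate the 3 differences were -0.26, -0.09 and -0.21 (adjusted p = 0.367, 0.805 and 0.724), and without the mice of low length slope that of 1500015O10Rik was 0.10. Of the other choroid plexus genes, Steap1, a membrane protein of the STEAP family, passed with the first covariate (-0.70, SE 0.17, adjusted p = 0.0340). Steap1 is itself part of that score, so it was set against a measure that holds it. The part of the length slope in its difference was not tested.

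**Figure D4:**
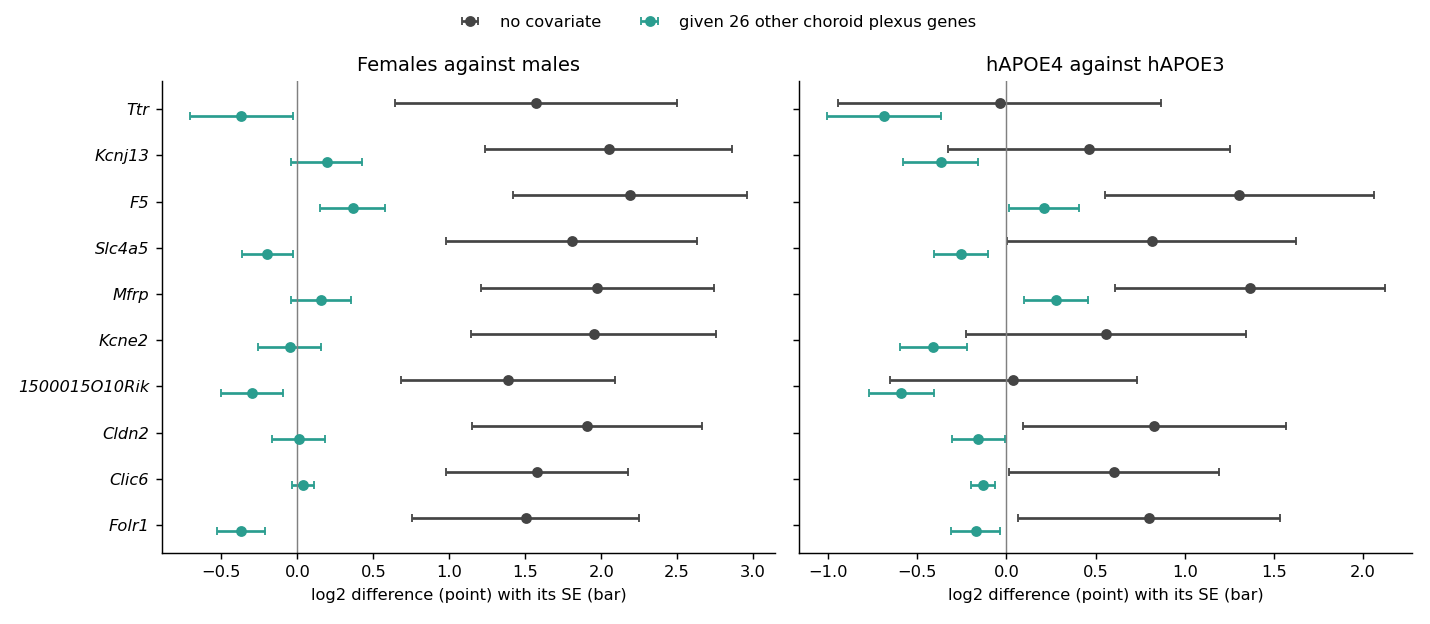
Log2 differences of the 10 members with their SE, females against males (left) and hAPOE4 against hAPOE3 (right), without a covariate (grey) and given the score of 26 other choroid plexus genes (green). Without a covariate the sex differences run from 1.39 to 2.19, and with it from -0.37 to 0.36. The score varies closely with the members, so a difference they share with it is largely removed.

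The wider choroid plexus list behaved like the members. In the comparison of the sexes 26 of 26 of its genes had higher fitted values in females, with a median of 1.23. At an unadjusted p under 0.05 there were 19, against 2181 of all 21724 genes, and 0 passed the test. Since 22 of the 26 had an r of at least 0.9 with the member score, these are not separate observations. Enpp2, which encodes the lysophospholipase autotaxin and was the most abundant of the list, differed by 1.54 (SE 0.51, adjusted p = 0.315), Kl, the ageing-related coreceptor klotho, by 1.45 (SE 0.40, adjusted p = 0.206), and Slc4a2, a chloride bicarbonate exchanger, by 0.42 (SE 0.26, adjusted p = 0.620). Both Enpp2 and Kl are also made outside the plexus, and their lowest mice still had 174.9 and 19.0 CPM.

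Genes of fluid secretion that neurons and glia also use did not share the range of the members. The 18 genes of this list, sodium pump subunits, carbonic anhydrases and ion exchangers, summed to between 4199 and 5353 CPM per mouse. Atp1b1, the most abundant and a sodium pump subunit, had r = -0.20 with the member score, whereas Aqp1 had 0.99 and Slc4a2 0.93. 0 of the 18 passed in either sex or genotype average, with 1 and 6 at an unadjusted p under 0.05 (2181 and 3898 of all 21724 genes). The largest sex difference of the list by test was that of Car12 (0.88, SE 0.20, adjusted p = 0.0964).

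Genes that act with the members were measured as well. Of 13, 12 passed the filter and 0 passed the test in any comparison between groups. At an unadjusted p under 0.05 there were 2 between the sexes and 4 between genotypes (2181 and 3898 of all 21724 genes). Slc5a3, a myo-inositol transporter that Kcne2 channels associate with, had r = 0.25 with the member score, and Slc46a1, the proton-coupled folate transporter, had 0.45. Rbp4, the partner of transthyretin, ran only from 3.496 to 9.37 CPM while Ttr spanned a 158.2-fold range. C1qtnf5, which overlaps Mfrp, ran from 4.88 to 23.2 CPM with r = 0.59.

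Markers of other cell types were compared with the member score. The 8 genes of stroma and meninges, collagens, decorin, lumican, osteoglycin, Igf2 and Slc6a13, moved with it most closely (r = 0.80, rho = 0.75 over 20 mice, and r = 0.74 without the 2 mice farthest from the median stromal score). Their summed level was 78.7 to 183 CPM in hAPOE3 males, 88.0 to 227 in hAPOE4 males, 96.5 to 349 in hAPOE3 females and 90.8 to 363 in hAPOE4 females. Igf2, the most abundant and made by the choroid plexus and the meninges, had r = 0.96 with the score, Dcn 0.31 and Col1a2 0.80. The relation was not uniform, with r = 0.52 among the 12 mice above the step and -0.23 among the 8 below it. Among the 12, stromal scores ran from -0.94 to 0.58 in the 5 of low length slope and from -0.01 to 1.31 in the other 7. The part of the length slope in this relation was not tested. Between the sexes 8 of 8 stromal genes had higher fitted values in females (median 0.86, 0 past the test). At an unadjusted p under 0.05 there were 7, against 2181 of all 21724 genes. The part of the stroma in the member values was not tested.

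**Figure D5:**
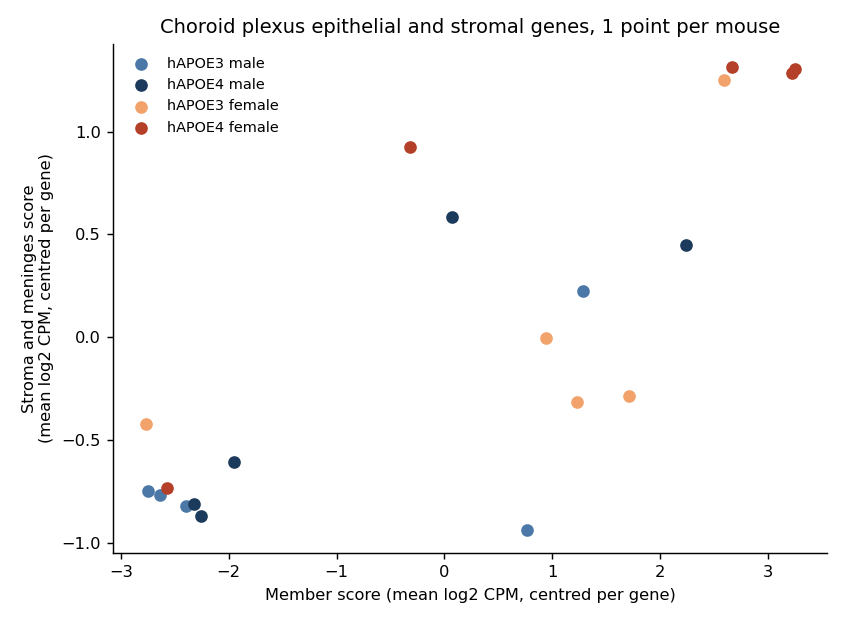
Member score (horizontal) and score of 8 stroma and meninges genes (vertical), both means of centred log2 CPM, 1 point per mouse coloured by group. The 8 mice of lowest member score lie together at the lower left (stromal scores from -0.87 to -0.42), and the other 12 spread from -0.94 to 1.31.

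Border macrophage genes (r = 0.68, rho = 0.58 for 6 genes) and endothelial genes (r = 0.62, rho = 0.57 for 7 genes) came next, and this was computed after seeing the data. Without the 2 mice farthest from the median these r were 0.58 and 0.71. Among the 12 mice above the step they were 0.43 and -0.19, and among the 8 below it 0.54 and 0.44. Between the sexes 6 of 6 macrophage genes had higher fitted values in females (median 0.44, 0 past the test). At an unadjusted p under 0.05 there were 2, against 2181 of all 21724 genes. The other measures followed the member score less closely. Over 20 mice r was 0.52 for total counts (rho = 0.55), 0.42 for 10 ependymal genes (0.62), 0.38 for 9 striatal genes (0.58), 0.22 for 5 thalamic genes (0.16), 0.12 for the mitochondrial share (0.13), -0.10 for 12 oocyte genes (0.28) and -0.37 for 8 hippocampal neuron genes (-0.42). Without the 2 mice farthest from the median of each measure these r were 0.47, 0.61, 0.42, 0.24, -0.02, 0.19 and -0.44. Centred on the group means, r was 0.58 for striatal, 0.54 for thalamic, 0.19 for oocyte and -0.62 for hippocampal neuron genes. The ependymal genes, of the ciliated lining of the ventricle, summed to 17.5 to 59.8 CPM, and Foxj1, Ak7 and Ccdc153 were each above 0 in every mouse. Border macrophage genes summed to 4.14 to 23.8 CPM, endothelial genes to 232 to 318 CPM and hippocampal neuron genes to 387 to 745 CPM. Striatal genes reached 640.1 CPM in the hAPOE3 males (199 at most in the other groups). Thalamic genes reached 400.1 CPM in the males (94.6 at most in the females). The thalamic score was 2.26 in hAPOE3 male 5, 2.11 in hAPOE4 male 3 and 2.36 in hAPOE4 male 5, and below 0 in every other mouse. The striatal score was highest in hAPOE3 male 5 (2.81). These mice were among the 4 males above the step, which had the lowest hippocampal neuron scores of all mice (-0.74 to -0.45). Oocyte genes ran from 1.55 to 165.3 CPM, above 2.82 only in hAPOE4 males. Retinal pigment epithelium markers, which share genes with this epithelium, summed to 16.1 to 26.7 CPM and did not follow the range of the members. Markers of liver, another source of transthyretin and factor V, were at 0.345 CPM or less in sum over the 3 of 5 measured. Of 4 oocyte genes tested, 3 were called higher in hAPOE4 than in hAPOE3 males and 3 lower in hAPOE4 females than in hAPOE4 males, against 0.621% and 0.437% of all genes. In the interaction 1 of these 4 was called (0.184% of all genes), in the sex average 1 (0.129%) and in the genotype average 2 (2.45%), and given the other choroid plexus genes 1 (0.382%) and 2 (2.79%). Apart from the thalamic gene Tnnt1, called between the sexes given the other choroid plexus genes (-3.48, adjusted p = 0.0250), 0 genes of the ependymal, stromal, endothelial, macrophage, neuronal, striatal, thalamic and retinal lists were called in any comparison. The part of any of these cell types in the member values was not tested.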

How the data were processed

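RNA of the hippocampus of 20 mice was sequenced as polyA libraries. The authors assigned reads to mouse transcripts with Salmon 0.91 and used tximport for gene totals. The deposited estimated counts are whole numbers, not scaled for depth. A deposited table of normalized counts, a signal the authors made with DESeq2 by dividing counts by factors that differ between genes within a mouse, served as an alternative for ratios and correlations. The estimated counts keep any difference between libraries in how well long transcripts were recovered.

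Counts were fitted in R 4.3.3 with edgeR 4.0.16 (TMM factors, glmQLFit and glmQLFTest on 4 group means, 21724 of 33119 genes kept by filterByExpr, SE from the log2 difference and F). The fit used all 20 mice. DESeq2 1.42.0, other normalizations, no filter, 2-group fits and leaving out each mouse were alternatives. CPM are TMM-scaled, and log2 CPM has a prior count of 2. Principal components used the variance stabilizing transformation of DESeq2 and the 500 most variable genes. Transcript lengths and positions are from GENCODE M21 (GRCm38), the longest principal transcript per gene. The length slope used genes with a mean of at least 5 CPM. Scripts were tested on simulated data. In 190 pairs of libraries the smallest chi-square per degree of freedom was 9.98, so none was counted as a repeat. Replicates are separate mice, numbered 1 to 5 in each group in accession order.

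The members and lists were chosen with earlier results of these data known, and the length slope and the motifs were added after values were seen. Besides the 10 members, the text names genes of a list past the threshold, or the 3 with the highest mean CPM, and the 10 genes most like the member score. A few others, such as Kl, Igf2, Rbp4, Aqp1 and C1qtnf5, were named after their values were seen. Correlations were permuted 100000 times, but their p-values are not printed because the members were selected on these libraries. 0 columns were left out. Results of a few genes of the comparison lists are not reported here.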

Additional observations from a re-analysis of the deposited data

Results flagged for a closer look

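Within the groups of 5, Dixon's criterion (a gap of more than 0.71 of the group's range) was applied to the 10 members, the member score, the length slope and the score of the other choroid plexus genes, 52 groups in all, and chance alone passes about 1 in 20. It singled out hAPOE3 female 3 for 2 genes. Ttr stood at a log2 CPM of 5.22 in this mouse, with a gap of 0.761 of the range of hAPOE3 females. Cldn2 stood at -1.17, with a gap of 0.714. The mouse also had the lowest member score of all 20 (-2.77), and its length slope was 0.14, the highest.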

How the results depend on the processing

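Of 1188 recomputed values, 1148 kept their direction and their side of the threshold or moved by less than the spread between mice. For medians over the members this spread was an SD of 2.14 log2 units. The median between genotypes in males counted as unchanged, although it ran from -1.22 to 1.08 with a mouse left out. The count of 1148 is therefore no measure of how stable the medians were. The count of members past the threshold was 0 in 238 of 240 alternatives, which covered DESeq2, other normalizations, no filter on low counts, fits of only 2 groups, the length slope and each mouse left out. The exceptions were without hAPOE3 female 1 and without hAPOE3 male 2, between genotypes given the other choroid plexus genes, so that leaving out a mouse gave 0 to 1. The alternatives with the length slope and those within the 12 and the 8 mice were chosen after seeing the data.

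With the length slope as a covariate the difference of Ttr between genotypes turned to 1.66 in males and 1.25 over both sexes, and without the mice of low slope to 4.01 and 2.53. Without those mice 1500015O10Rik, given the other choroid plexus genes, turned to 0.10. The medians in males, between the sexes in hAPOE3 mice and of the interaction moved to 3.29, 4.41 and -2.31. The cause was not tested. Leaving out a mouse gave Ttr -2.17 to 0.22 in males and -0.80 to 0.40 over both sexes, and Mfrp -0.26 to 2.28 in males.

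Centred on the group means, r with the member score was 0.637 for total counts, -0.623 for hippocampal neuron, 0.579 for striatal, 0.541 for thalamic and 0.194 for oocyte genes. Within the 12 mice above the step it was -0.446 for the mitochondrial share, 0.515 for stromal, 0.142 for neuronal, -0.0780 for striatal and -0.253 for thalamic genes, and within the 8 below it -0.226 for stromal, 0.620 for neuronal and 0.774 for oocyte genes. Leaving out a mouse gave 0.454 to 0.607 for total counts, 0.343 to 0.665 for ependymal and -0.226 to 0.0245 for oocyte genes. The cause was not tested.

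No paired analysis was possible because the labels carry no replicate number shared between groups. With 5 mice a group, 7 members had an unadjusted p under 0.05 between the sexes, as did 2181 of all 21724 genes. After adjustment over all genes 0 members passed.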
